A study of Mus musculus with 21 samples.

Results

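The kidneys of 6 apoE KO mice fed adenine together with iodomethylcholine (the Ade + IMC group) were compared with the kidneys of 5 apoE KO mice that received neither compound (the Con group). The mice were taken by their labels: all mice labelled Ade + IMC and all mice labelled Con whose kidney RNA-seq values were at hand, 11 of the 17 mice with values and of the 21 mice in the labels. All mice were females of the C57BL/6J strain, both groups lacked the apolipoprotein E gene, and tissue was taken at 18 weeks of age after 14 weeks of feeding. The Con mice ate the chow diet, and the Ade + IMC mice ate the same chow with adenine at 0.2% and IMC at 0.06% of the diet. The 6 mice of the Ade group, which ate adenine without IMC, are used where their values bear on the comparison, and the 4 Con + IMC mice are not analysed here. A difference between Ade + IMC and Con kidneys is therefore the joint result of adenine and IMC, and the share of IMC in it cannot be told apart without the Ade and Con + IMC mice.

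Dietary adenine is oxidised by xanthine dehydrogenase to dihydroxyadenine, which crystallises in the tubules, so the model is a tubulointerstitial nephropathy with tubular injury, leukocyte infiltration and interstitial fibrosis. In such injury the proximal tubule cells, which reabsorb most of the filtered glucose, phosphate, amino acids and protein and live on fatty acid oxidation, lose their specialised transporters and enzymes and switch on injury genes. IMC blocks the choline lyase of gut bacteria that makes trimethylamine, which the liver oxidises to trimethylamine N-oxide (TMAO). The question of the comparison is how much of the kidney disease is still visible across genes when IMC is given with adenine.

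Apoe, the deleted gene, was read first as a check of the labels. The 5 Con mice had 6.10, 8.07, 11.5, 13 and 14.9 CPM (reads scaled to a common library size, with TMM factors over 17 mice), and the lowest, median and highest of the 6 Ade + IMC mice were 11.9, 17.8 and 24.5 CPM. The groups overlapped and the gene was called higher (log2 fold change 0.69, SE 0.23, adjusted p = 0.0220). Which part of the deleted gene these reads cover cannot be read from gene counts, so they check the labels only in part. The kidney markers Umod (3664 to 6542 CPM), Lrp2 (631 to 6326 CPM) and Slc34a1 (1167 to 5670.1 CPM) were abundant in all 11 mice. The total of reads on genes present in both deposited tables was 7122708 ± 942312 (SD, n = 6) in the Ade + IMC mice and 9137866 ± 1545387 (SD, n = 5) in the Con mice (exact permutation test, both sides, p = 0.0216). The 10 most abundant genes took 11.2% ± 1.48 against 15% ± 0.383 of the reads (exact p = 0.00433, the smallest this design allows). After thinning each library to 5444738 reads, 18814 ± 137 genes had a read in the Ade + IMC mice and 17878 ± 179 in the Con mice (exact p = 0.00433). Adjusted for these 3 measures the p-values were 0.0216, 0.00649 and 0.00649. Libraries that stood apart were Ade + IMC mouse 311 (6.50% of its reads were immunoglobulin genes against 0.108% to 1.13% in the other 5), mouse 412 (closest to the Con mice in 26 of 52 gene lists) and mouse 212 (adipocyte genes), and where leaving them out moved a result most, the value without them is given.

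edgeR's quasi-likelihood test called 9219 of 14578 genes (63.2%), with the study's threshold of 0.1 on the Benjamini-Hochberg adjusted p. Higher in Ade + IMC kidneys were 4504 genes (30.9%) and lower were 4715 (32.3%), and at a change of at least 2-fold 2084 (14.3%) were higher and 739 (5.07%) lower. Changes of at least 8-fold were mostly rises, with 420 called genes at least 8-fold higher and 6 at least 8-fold lower. The groups did not overlap in 37.0% of the genes tested (20.5% higher, 16.4% lower). The median log2 fold change over all genes was -0.016. With library totals in place of TMM factors this median was 0.27 and the split became 7531 higher and 2247 lower, so all changes below are relative to the TMM scale. Log2 fold changes written with ± carry their SE, coordinates are those of GRCm38, and tests are edgeR's with Benjamini-Hochberg adjustment unless another is named. Without mice 212, 311 and 412 the test called 8110 genes, of which 7739 were among the 9219.

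Among called genes without overlap between the groups, the largest rise outside the antibody genes was that of Mmp7 (chromosome 9, 7692090 to 7699585), a matrix protease of injured epithelium, which had 0 reads in all 5 Con mice and 9.02, 15.3 and 42.1 CPM as lowest, median and highest value in the 6 Ade + IMC mice. Against a floor of 3 reads over the Con group this was at least 281-fold higher. The neutrophil-attracting chemokine Cxcl5 had 0 reads in the Con mice as well and 4.08 to 18.1 CPM in the Ade + IMC mice, at least 143-fold higher. The other 8 of the 10 largest rises were immunoglobulin variable genes (Ighv1-9, Ighv3-6, Ighv9-3, Igkv15-103, Igkv3-2, Igkv3-4, Igkv3-5 and Igkv5-39), whose levels differed widely by mouse. Igkv3-4, for example, ran from 1.76 to 648 CPM in the Ade + IMC mice, with the highest value in mouse 311. These variable genes have near-identical copies and their counts are uncertain.

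The largest falls included transporters and enzymes of the proximal tubule. Cyp2d12, a cytochrome P450 with close paralogs, had 15.7, 21.2, 21.2, 23.2 and 26.8 CPM in the Con mice and 0.113, 1.03 and 3.44 CPM as lowest, median and highest in the Ade + IMC mice (log2 fold change -4.14, SE 0.41, adjusted p = 4.54e-06). Bhmt, which remethylates homocysteine with betaine, fell with a log2 fold change of -3.66 ± 0.42, and the growth factor gene Igf2 with -3.62 ± 0.31. Igf2 shares 64.5% of its exonic bases with other genes, and since the strand setting of the counting is not given its count is uncertain. The lactate transporter Slc5a12 (-3.33), the neutral amino acid transporter Slc6a19 (-2.79), the organic anion transporter family gene Slc22a29 (-2.76), the tyrosine-degrading enzyme Hpd (-2.86), the water channel Aqp4 (-2.82), the lectin-like gene Clec2h (-2.89) and the myosin gene Myh1 (-3.64) complete the 10 largest falls. None of the Con and Ade + IMC ranges overlapped for these 10, which the rule for naming them required.

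Tubular injury genes were high in every Ade + IMC kidney. In this list 27 of 29 tested members were higher and 1 lower (median 1.53), against 30.9% of all genes higher and an all-gene median of -0.016. Medians beside such counts are log2 fold changes over the tested members. Genes with few Con reads can pass the filter on low counts through the Ade + IMC mice alone, which favours rises in these counts, here and below. Havcr1 (chromosome 11, 46735080 to 46779578), which encodes KIM-1, the phosphatidylserine receptor of injured proximal tubule cells, had 0.135, 0.39, 0.505, 0.578 and 0.915 CPM in the Con mice and 21.8, 65.9 and 218 CPM as lowest, median and highest in the Ade + IMC mice. The groups were far apart, and the log2 fold change was 7.34 ± 0.76 (adjusted p = 6.25e-06), although the 6 Ade + IMC mice differed widely among themselves. Lcn2, the siderophore-binding lipocalin NGAL, had 1.30, 2.74, 2.87, 3.13 and 5.01 CPM in Con and 116, 235 and 344 CPM in Ade + IMC mice (log2 fold change 6.25, SE 0.39, adjusted p = 1.20e-07). Here too the lowest Ade + IMC mouse was above the highest Con mouse.

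Spp1, the matrix and crystal-binding protein osteopontin, was already abundant in the Con mice (1396 to 1769.6 CPM) and reached 2658 to 10949.8 CPM in the Ade + IMC mice (log2 fold change 1.86, SE 0.30, adjusted p = 1.60e-04), and 18.8% of its exonic bases overlap another gene on the same strand. Vcam1, an adhesion molecule that also marks injured proximal tubule cells that failed to recover, rose with a log2 fold change of 3.06 ± 0.20 and the chaperone Clu with 1.29 ± 0.22. The cell cycle inhibitor Cdkn1a (p21) rose with 1.53 ± 0.14 and the stress transcription factor Atf3 with 2.33 ± 0.29. These genes moved in 1 direction in all 6 mice, since their Ade + IMC and Con ranges did not overlap. Plin2, a lipid droplet protein of the same list, was called (log2 fold change 0.49, SE 0.22, adjusted p = 0.0683) with overlapping groups (64.7 to 95.9 and 71.8 to 189 CPM). Its call was lost without any 1 of mice 201, 202, 211, 212 and 403 (adjusted p = 0.115 to 0.151), and among mice with numbers starting with 3 its log2 fold change was -0.026.

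**Figure D1:**
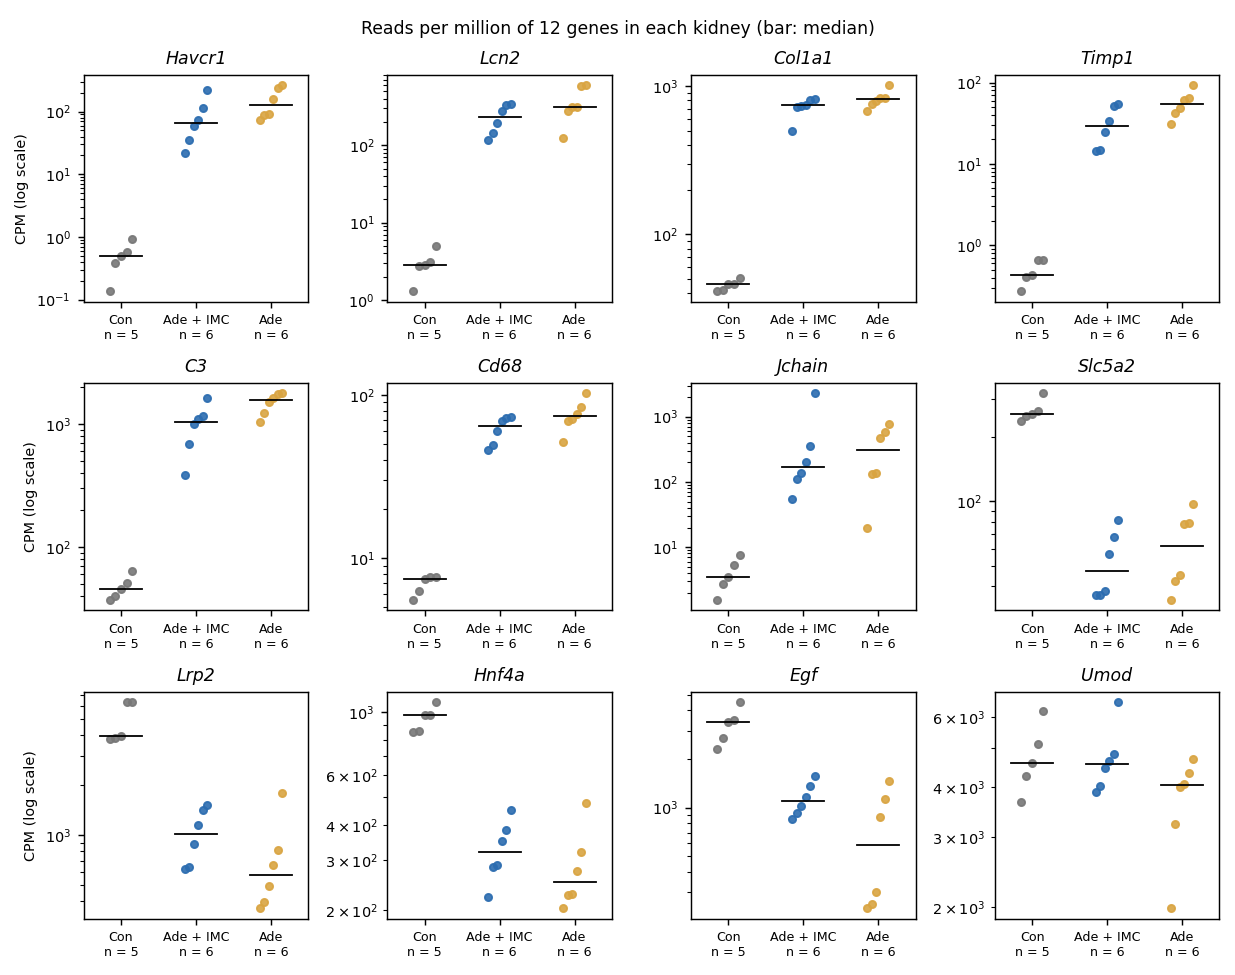
CPM (log axis) of 12 genes in each kidney, 5 Con, 6 Ade + IMC and 6 Ade mice, with 1 point per mouse and a bar at the median. Havcr1, Lcn2, Col1a1, Timp1, C3, Cd68 and Jchain lie higher and Slc5a2, Lrp2, Hnf4a and Egf lower in each Ade + IMC mouse than in each Con mouse, while Umod overlaps.

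The interstitial matrix genes rose together in the Ade + IMC kidneys. Among collagens, 21 of 28 tested members were higher and 2 lower (median 1.25). Among matrix glycoproteins and crosslinking enzymes 36 of 48 tested members were higher and 3 lower (median 1.41), and among matrix proteases and their inhibitors 35 of 43 tested members were higher and 3 lower (median 1.86). Col1a1 (chromosome 11, 94936224 to 94953042), a chain of fibrillar collagen I, had 41.3, 41.8, 46.1, 46.2 and 50.8 CPM in the Con mice and 496, 740.3 and 815 CPM as lowest, median and highest in the Ade + IMC mice (log2 fold change 3.97, SE 0.15, adjusted p = 3.11e-09). The 6 mice differed by less than 2-fold from each other, far less than the distance between the groups. Col3a1 rose from 46.3 to 59.8 CPM (Con) to 490.2 to 859.8 CPM (Ade + IMC; log2 fold change 3.69 ± 0.14) and Col1a2 from 78.7 to 97.9 CPM (Con) to 505 to 795 CPM (Ade + IMC; 2.92 ± 0.13).

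The 2 called falls among the 28 collagens were chains of basement membrane collagen. Col4a3, a chain of the mature glomerular and tubular basement membrane, fell from 807 to 894 CPM (Con) to 327 to 552 CPM (Ade + IMC; log2 fold change -1.02, SE 0.14, adjusted p = 4.83e-05), and its partner chain Col4a4 fell too (-0.96). The adhesive matrix proteins fibronectin (Fn1, 2.40 ± 0.23), tenascin C (Tnc, 2.56 ± 0.39) and periostin (Postn, 1.81 ± 0.35) all rose. Ltbp2, which binds to fibrillin microfibrils, had 0.807, 0.866, 1.05, 1.56 and 1.63 CPM in the Con mice and 41.6, 88.1 and 118 CPM in the Ade + IMC mice (log2 fold change 6.16, SE 0.33, adjusted p = 4.31e-08). The collagen crosslinking enzyme Lox rose (3.0 ± 0.23), while its relative Loxl4 fell (-1.25 ± 0.18), so the crosslinking enzymes did not all move in 1 direction.

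Proteases and inhibitors were both found among the rises and among the falls. Timp1, an inhibitor of matrix proteases, had 0.271, 0.404, 0.433, 0.649 and 0.653 CPM in Con and 14.3, 29.2 and 53.9 CPM in Ade + IMC mice (log2 fold change 5.99, SE 0.51, adjusted p = 1.24e-06). Mmp2, a gelatinase of fibroblasts, rose from 4.84 to 7.71 CPM (Con) to 61.1 to 79.9 CPM (Ade + IMC; log2 fold change 3.40, SE 0.13, adjusted p = 3.11e-09). Timp3, a matrix-bound inhibitor, fell from 1218 to 1833 CPM (Con) to 500.1 to 758 CPM (Ade + IMC; -1.36 ± 0.14), although 21.3% of its exonic bases lie opposite another gene.

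Among myofibroblast and smooth muscle genes, 20 of 27 tested members were higher and 1 lower (median 0.96). Acta2, the smooth muscle actin of vessels and myofibroblasts, rose from 72.5 to 92.4 CPM (Con) to 94.1 to 249 CPM (Ade + IMC; log2 fold change 0.99, SE 0.19, adjusted p = 8.11e-04), the pericyte receptor Pdgfrb with a log2 fold change of 1.15 ± 0.13 and the fibroblast matrix protein Dpt with 4.26 ± 0.25. Of the fibrosis growth factors, 19 of 39 tested members were higher and 5 lower (median 0.45). Tgfb1, the main profibrotic cytokine, rose with 1.47 ± 0.14 and Pdgfb with 1.14 ± 0.11, both with no overlap between groups. The BMP antagonist Grem1 went from 0 to 0.406 CPM (Con) to 6.36 to 19 CPM (Ade + IMC; log2 fold change 5.60, SE 0.50, adjusted p = 2.00e-06) and the BMP ligand Bmp6 fell with -1.13 ± 0.15. In whole kidney RNA, more cells of a type and more RNA per cell cannot be told apart, here and in all that follows.

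Inflammatory signals were raised in every Ade + IMC kidney, with most members of their lists called. Among chemokines and their receptors 33 of 38 tested members were higher and 1 lower (median 2.83). For interleukins, the TNF family and their receptors 43 of 51 tested members were higher and 2 lower (median 2.01), and for NF-kB subunits, toll-like receptors and inflammasome genes 42 of 45 tested members were higher and 1 lower (median 1.69). Ccl2, which recruits monocytes, had 0.519, 0.784, 0.813, 0.866 and 1.51 CPM in the Con and 6.01, 9.13 and 15.3 CPM in the Ade + IMC mice (log2 fold change 3.35, SE 0.30, adjusted p = 2.24e-06). Cxcl13, which attracts B cells, ranged from 1.66 to 47.7 CPM in the Ade + IMC mice (log2 fold change 4.50, SE 1.0, adjusted p = 0.00188), with its highest value in mouse 311. The cytokine genes Tnf (0.433 to 0.813 CPM in Con and 3.37 to 9.57 CPM in Ade + IMC mice) and Il1b (1.49 to 2.47 and 6.44 to 25.7 CPM) did not overlap between groups and had log2 fold changes of 3.27 ± 0.35 and 2.74 ± 0.39.

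The sensors and the NF-kB subunits rose as well. Toll-like receptor Tlr2 rose with 2.51 ± 0.20, Tlr8 with 3.14 ± 0.39 and the NF-kB subunit Nfkb2 with 1.42 ± 0.18, although 18.1% of the exonic bases of Nfkb2 lie opposite another gene. Tnfrsf13c, the BAFF receptor of B cells, had 0 to 0.131 CPM in Con and 0.573 to 28.8 CPM in Ade + IMC mice. The interleukin gene Il6 and the chemokine Ccl20 did not pass the filter on low counts. Il6 had at most 0.135 CPM in a Con mouse and 0.113 to 1.24 CPM in the Ade + IMC mice, and Ccl20 had 0 to 0.131 and 1.0 to 3.83 CPM.

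The promoters of the inflammation genes, which moved together, were searched for the NF-kB consensus in 2 spellings, GGGANTTTCC and GGGGNTTTCC, on both strands, within the 250 bases before each gene start (RefSeq, GRCm38.p6). Of 229 tested inflammation genes 168 matched the promoter table, with 199 promoters. A match was in 17 of the 199 promoters (8.54%), and in 0.756% of the 14284 promoters of all genes tested. All 15 genes with a match were called higher, as were 148 (88.1%) of the 168 matched genes, with or without the letters. Shown are the promoters of the 3 with the largest rise, Cxcl2 (a neutrophil chemokine), Ltb (lymphotoxin beta) and Tnfrsf9 (the costimulatory receptor 4-1BB), 5′ to 3′ toward the gene start, with the match in capitals.
Cxcl2, chr5:90903649-90903898, plus strand: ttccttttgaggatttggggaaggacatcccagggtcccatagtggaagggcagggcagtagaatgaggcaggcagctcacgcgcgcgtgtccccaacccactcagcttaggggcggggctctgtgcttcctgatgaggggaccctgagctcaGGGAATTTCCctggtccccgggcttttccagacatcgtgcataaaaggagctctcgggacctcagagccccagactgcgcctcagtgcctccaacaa
Ltb, chr17:35194257-35194506, plus strand: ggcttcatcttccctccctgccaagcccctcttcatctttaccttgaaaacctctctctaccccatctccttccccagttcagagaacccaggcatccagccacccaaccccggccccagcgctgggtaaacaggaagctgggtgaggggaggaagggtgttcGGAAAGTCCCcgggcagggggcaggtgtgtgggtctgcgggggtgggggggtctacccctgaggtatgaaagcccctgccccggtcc
Tnfrsf9, chr4:150927749-150927998, plus strand: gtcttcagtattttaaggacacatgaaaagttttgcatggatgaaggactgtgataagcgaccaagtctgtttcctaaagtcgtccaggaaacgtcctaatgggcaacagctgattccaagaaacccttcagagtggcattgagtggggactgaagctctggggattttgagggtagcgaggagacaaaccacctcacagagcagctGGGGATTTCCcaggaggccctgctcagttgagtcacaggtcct
The match of Ltb is on the opposite strand and reads as the reverse complement. Cxcl2 had 0, 0.260, 0.261, 0.271 and 0.578 CPM in the Con mice and 2.29, 8.02 and 22.8 CPM as lowest, median and highest in the Ade + IMC mice (log2 fold change 5.30, SE 0.88, adjusted p = 2.35e-04). Ltb rose with 4.45 ± 0.60 and Tnfrsf9 with 4.26 ± 0.70. A match of letters is a description of these windows and says nothing of binding.

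Most complement genes were higher. In that list 21 of 26 tested members were higher and 1 lower (median 2.37). C3, the central component made by injured tubule cells and macrophages, had 37.2, 40.4, 45.2, 51 and 63.6 CPM in the Con and 387, 1043 and 1639 CPM in the Ade + IMC mice (log2 fold change 4.36, SE 0.34, adjusted p = 7.18e-07), and C1qa, a macrophage product, rose with 3.26 ± 0.17. Cfb, a protease of the alternative pathway, was the called fall (-1.67 ± 0.21), but 79.5% of its exonic length also lies in another gene on the same strand and its count is uncertain. Of the antigen presentation genes, 26 of 28 tested members were higher and 1 lower (median 1.94), and of the interferon-stimulated genes, 40 of 42 tested members were higher and 0 lower (median 1.42). B2m, the light chain of MHC class I, rose from 355 to 458 CPM (Con) to 803 to 1962 CPM (Ade + IMC), and the class II genes H2-Aa (2.70 ± 0.21) and Cd74 (2.71 ± 0.26) rose too. Irf7, Isg15 and Oas3, which interferon induces, had log2 fold changes of 1.84 ± 0.16, 1.78 ± 0.18 and 2.78 ± 0.30.

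Markers of leukocytes followed the same direction. For macrophages and dendritic cells 37 of 41 tested members were higher and 2 lower (median 2.87). Of 43 listed T cell and NK cell genes 35 were tested, and of these 35 were higher and 0 lower (median 3.38). Since many had few Con reads and passed the filter on low counts through the Ade + IMC mice, that count is a description only. For B cells and plasma cells 30 of 32 tested members were higher and 0 lower (median 4.52), and for leukocyte adhesion molecules 14 of 17 tested members were higher and 1 lower (median 2.82). Cd68, a lysosomal protein of macrophages, had 5.55, 6.26, 7.45, 7.65 and 7.66 CPM in the Con mice and 45.9, 64.5 and 72.7 CPM in the Ade + IMC mice (log2 fold change 3.13, SE 0.16, adjusted p = 3.12e-08). Lyz2 rose with 4.29 ± 0.24 and Adgre1, the F4/80 antigen, with 2.72 ± 0.18. Genes of lipid-handling macrophages rose as well, with Trem2 from 0.433 to 1.51 CPM (Con) to 13.5 to 27.4 CPM (Ade + IMC) and Gpnmb from 0.131 to 1.73 CPM (Con) to 45.1 to 129 CPM (Ade + IMC; log2 fold change 6.56, SE 0.41, adjusted p = 1.15e-07).

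T cell genes were raised in all 6 mice. Cd3e, a chain of the T cell receptor complex, had 0.406, 1.01, 1.18, 1.72 and 1.82 CPM in Con and 5.81, 8.87 and 40.8 CPM in Ade + IMC mice (log2 fold change 3.49, SE 0.59, adjusted p = 2.50e-04), and Cd4 and Cd8a had log2 fold changes of 3.64 ± 0.44 and 2.43 ± 0.45. The adhesion genes Icam1 (1.57 ± 0.14) and Selp (4.25 ± 0.40), with which endothelium captures leukocytes, rose too. Only 5 of 23 neutrophil and mast cell genes passed the filter on low counts, with the mast cell receptor Kit, named after its values were seen, not called (log2 fold change -0.14, adjusted p = 0.296). Among them were S100a9 (0.131 to 0.404 and 0.859 to 12.2 CPM, adjusted p = 5.10e-04) and the itaconate-making enzyme Acod1 (0 to 0.144 and 1.0 to 17.5 CPM), while S100a8 did not (0 to 0.542 and 1.02 to 9.45 CPM).

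B cell and plasma cell genes varied widely between mice, and mouse 311 had the highest level of most of those named. For Igkv15-103 mouse 212 was the highest (34.6 CPM, against 28.1 CPM in mouse 311). Ighm, the heavy chain of IgM, had 13.5, 16.2, 16.9, 19.9 and 21.1 CPM in the Con mice and 336, 867 and 27706 CPM as lowest, median and highest in the Ade + IMC mice, the highest in mouse 311. Jchain, which joins IgM and IgA, had 1.56, 2.74, 3.53, 5.42 and 7.47 and 54.4, 169 and 2273 CPM (log2 fold change 6.93, SE 1.13, adjusted p = 1.94e-04). Ms4a1 (CD20) ran from 0.716 to 61.6 CPM. The B cell list median relative to all genes was 4.53 with all mice, 2.87 without mouse 311 and 2.66 without mice 212, 311 and 412. The direction was the same without these mice, and the size was smaller.

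Proximal tubule genes of nearly every named function were lower. Of its transporters and endocytic receptors, 39 of 40 tested members were lower and 1 higher (median -1.21), against 32.3% of all genes lower. Of the organic ion transporters and monooxygenases, 29 of 34 tested members were lower and 2 higher (median -1.26), and of the enzymes, 41 of 48 tested members were lower and 3 higher (median -1.22). Slc5a2 (chromosome 7, 128265657 to 128272430), the glucose transporter SGLT2 of the early proximal tubule, had 238, 251, 257, 265 and 320.2 CPM in the Con mice and 36.2, 47.4 and 82.1 CPM as lowest, median and highest in the Ade + IMC mice (log2 fold change -2.36, SE 0.20, adjusted p = 1.46e-06). Every Ade + IMC mouse lay below every Con mouse, although 20.6% of the exonic bases of the gene are shared with a gene on the other strand.

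Protein and phosphate uptake genes fell too. Lrp2, the endocytic receptor megalin, had 3767, 3829, 3922, 6275 and 6326 CPM in Con and 631, 1020.3 and 1521 CPM in Ade + IMC mice (log2 fold change -2.24, SE 0.26, adjusted p = 1.57e-05). The phosphate transporter Slc34a1 fell from 4105 to 5670.1 CPM (Con) to 1167 to 2371 CPM (Ade + IMC; -1.47 ± 0.19) and its relative Slc34a3 from 38.7 to 62.6 CPM (Con) to 3.11 to 15.1 CPM (Ade + IMC; -2.69 ± 0.28). The organic anion and cation transporters Slc22a8 (-1.10 ± 0.20), Slc22a2 (-0.92 ± 0.16) and Slc22a6 (-0.82 ± 0.19) secrete drugs and uraemic solutes, and fell as well. The single called rise among 40 transporters was Slc36a2, a proton-coupled amino acid transporter, from 0 to 1.01 CPM (Con) to 4.84 to 58.2 CPM (Ade + IMC; log2 fold change 5.62, SE 0.85, adjusted p = 1.06e-04).

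Among the enzymes, Miox, which opens the ring of inositol, fell from 1574 to 2239.9 CPM (Con) to 419 to 974 CPM (Ade + IMC; -1.44 ± 0.20), and the androgen-dependent Kap fell with overlapping groups (6346 to 13335 and 2286 to 10109 CPM, log2 fold change -1.04, SE 0.33, adjusted p = 0.0167). The brush border peptidase Ace fell with -1.74 ± 0.21. Ugt2b37, a glucuronosyltransferase with close paralogs, rose with 2.17 ± 0.38. Both enzymes that set the level of active vitamin D changed, in opposite directions. Cyp27b1, which makes calcitriol, rose from 1.44 to 4.31 CPM (Con) to 2.61 to 13.7 CPM (Ade + IMC; log2 fold change 1.57, SE 0.40, adjusted p = 0.00440) with overlapping groups, and Cyp24a1, which degrades it, fell from 206 to 481 CPM (Con) to 34.9 to 121 CPM (Ade + IMC; log2 fold change -2.34, SE 0.31, adjusted p = 4.32e-05).

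**Figure D2:**
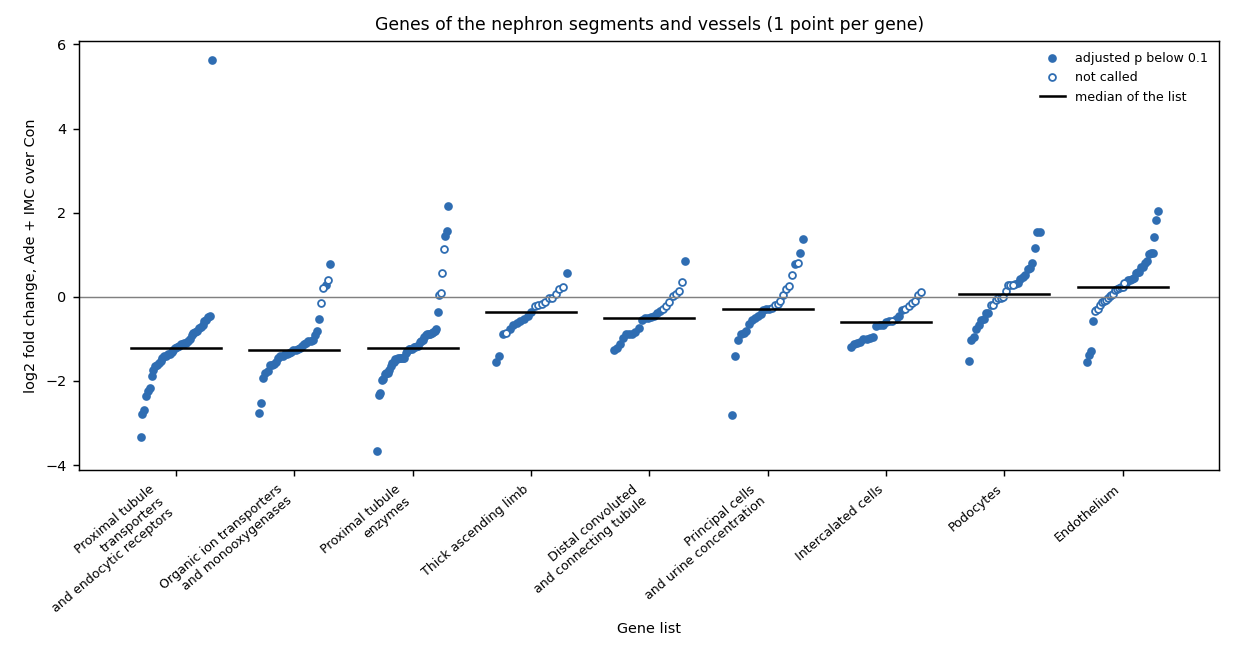
log2 fold change of Ade + IMC over Con kidneys for each tested gene of 9 lists of nephron segments and vessels, with 1 point per gene (filled where the adjusted p was below 0.1) and a bar at the list's median. The 3 proximal tubule lists have medians of -1.21, -1.26 and -1.22, the distal lists lie between -0.59 and -0.28, and podocytes and endothelium have medians of 0.065 and 0.24.

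Nephron transcription factors were divided. Hnf4a, a nuclear receptor that drives proximal tubule maturation, had 852, 858, 980.1, 983 and 1090.0 CPM in the Con and 223, 319.6 and 451 CPM in the Ade + IMC mice (log2 fold change -1.56, SE 0.16, adjusted p = 4.46e-06). Ppara, the nuclear receptor for fatty acid oxidation, fell from 61.6 to 113 CPM (Con) to 12.9 to 28.2 CPM (Ade + IMC; -1.97 ± 0.20). Rises were those of the cilia regulator Foxj1, from 0.271 to 0.915 CPM (Con) to 6.12 to 12.3 CPM (Ade + IMC; log2 fold change 4.38, SE 0.32, adjusted p = 3.97e-07), and of the epithelial factor Elf3 (1.39 ± 0.13). In the list of nephron transcription factors 20 of 38 tested members were lower and 11 higher (median -0.30), while the mean change over its members per mouse had a median of 0.13 over the 6 mice, opposite in sign.

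Distal segments had list medians nearer 0 than the proximal tubule. In the thick ascending limb 10 of 21 tested members were lower and 1 higher (median -0.35), and in the distal convoluted and connecting tubule 16 of 24 tested members were lower and 1 higher (median -0.50). In principal cells 14 of 26 tested members were lower and 3 higher (median -0.28) and in intercalated cells 16 of 23 tested members were lower and 0 higher (median -0.59). The thick ascending limb was uneven. Umod, the uromodulin of urine and among the most abundant transcripts of the segment, had 3664, 4255, 4589, 5125 and 6203 CPM in Con and 3889, 4561 and 6542 CPM in Ade + IMC mice and did not pass the test (log2 fold change -0.038, SE 0.18, adjusted p = 0.869), with overlapping groups. Egf, the growth factor made by the same cells, fell from 2315 to 4512 CPM (Con) to 846 to 1575 CPM (Ade + IMC; log2 fold change -1.54, SE 0.20, adjusted p = 3.08e-05), and the salt transporter Slc12a1 was called lower with overlap (1077 to 2918 and 1126 to 1558 CPM, adjusted p = 0.0257). That call was lost under library totals (adjusted p = 0.214) and without mice 212, 311 and 412 (0.101), and within the mouse numbers starting with 2, 3 and 4 the log2 fold changes were -1.17, -0.43 and 0.45.

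Downstream, the thiazide-sensitive transporter Slc12a3 fell from 1438 to 2159.7 CPM (Con) to 592 to 1502 CPM (Ade + IMC; -0.83 ± 0.19, with overlap) and Klhl3, which controls it, with -1.27 ± 0.17. Kl, the klotho coreceptor for FGF23, fell from 738 to 1274 CPM (Con) to 313 to 655 CPM (Ade + IMC; log2 fold change -1.13, SE 0.20, adjusted p = 3.49e-04) with no overlap, whereas the calcium buffer Calb1 did not pass the test (log2 fold change -0.22, SE 0.19, adjusted p = 0.340). In principal cells the water channel Aqp2 had 115 to 312 CPM in the Con and 104 to 218 CPM in the Ade + IMC mice (log2 fold change -0.56, SE 0.26, adjusted p = 0.0826), and its call was lost when most single mice were left out (adjusted p = 0.40 without mice 212, 311 and 412). The sodium channel subunit Scnn1g fell with -0.50 ± 0.14, a call lost under library totals, and Aqp4 from 129.7 to 264 CPM (Con) to 14.7 to 50.6 CPM (Ade + IMC). The vasopressin receptor Avpr2 did not pass the filter on low counts. In intercalated cells the proton pump subunit Atp6v1b1 (-0.59 ± 0.12), the anion exchangers Slc4a1 (-0.97 ± 0.16) and Slc26a4 (-0.99 ± 0.19) fell without overlap between groups.

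Podocyte genes showed no common direction, and more endothelial genes were called higher than lower. Of the podocyte genes 11 of 30 tested members were higher and 9 lower (median 0.065) and of the endothelial genes 18 of 39 tested members were higher and 5 lower (median 0.24). The slit diaphragm gene Nphs1 (42.5 to 63.2 and 31.4 to 76 CPM, log2 fold change -0.20, SE 0.20, adjusted p = 0.425) and the podocyte factor Wt1 (log2 fold change 0.28, SE 0.19, adjusted p = 0.227) did not pass the test with all mice. Mouse 410 was highest for both, and without it Nphs1 was called, with a log2 fold change of -0.38 (adjusted p = 0.056). Kirrel, another slit diaphragm gene, rose with 1.55 ± 0.15, and Vegfa, which podocytes and tubules secrete to sustain the capillaries, fell from 423 to 488 CPM (Con) to 255 to 365 CPM (Ade + IMC; -0.54 ± 0.094). Its receptor Kdr fell with overlap (log2 fold change -0.58, SE 0.19, adjusted p = 0.0215; not called under library totals), while the endothelial markers Pecam1 (log2 fold change 0.16, SE 0.15, adjusted p = 0.375) and Emcn (log2 fold change -0.087, SE 0.16, adjusted p = 0.675) did not pass the test. Pdpn, in the endothelial list as a lymphatic marker, rose with 2.04 ± 0.12, and which cells made it was not tested. The peptide Apln fell with -1.54 ± 0.17.

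Genes of mitochondrial and peroxisomal fuel use were mostly lower. Of fatty acid oxidation and peroxisome genes 59 of 63 tested members were lower and 0 higher (median -0.69), with 16 of the 63 lower by at least 2-fold. Of nuclear respiratory chain genes 55 of 77 tested members were lower and 0 higher (median -0.40) with 0 at 2-fold. Of mitochondrial genome genes 8 of 9 tested members were lower and 0 higher (median -0.80), and of the citric acid cycle 22 of 24 tested members were lower and 0 higher (median -0.65). Acadm, which opens medium-chain fatty acid oxidation, had 772, 1028, 1139.9, 1213 and 1556 CPM in the Con mice and 364, 541 and 758 CPM in the Ade + IMC mice (log2 fold change -1.07, SE 0.21, adjusted p = 8.98e-04). Cpt1a, the carnitine gate of mitochondria, fell with -0.86 ± 0.13 and catalase (Cat) with -1.11 ± 0.14. Ndufs1 of complex I (-0.88 ± 0.096) and Atp5a1 of the ATP synthase (-0.73 ± 0.11) fell without overlap, whereas Cox5a fell less (-0.36 ± 0.12) and its call was lost without mice 212, 311 and 412 (adjusted p = 0.12).

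The transcripts of the mitochondrial genome took 5.64% to 11.5% of the reads of Ade + IMC mice, against 10.8% to 12.1% of those of Con mice, with mouse 412 as the highest of the former. mt-Co1 had 24037 to 29477 and 11632 to 22239 CPM (-0.79 ± 0.19) and mt-Nd1 17584 to 19761 and 7111 to 17589.7 CPM (-0.83 ± 0.22). In the citric acid cycle, Idh2 (-0.61 ± 0.10) and the anaplerotic enzyme Pcx (-1.28 ± 0.17) fell, and citrate synthase (Cs) did not pass the test (log2 fold change -0.16, SE 0.10, adjusted p = 0.193) with overlapping groups.

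Genes of amino acid and glucose metabolism were mostly lower too. Among amino acid, choline and methionine breakdown genes 55 of 58 tested members were lower and 0 higher (median -1.06), and among genes of gluconeogenesis and fructose use 14 of 15 tested members were lower and 1 higher (median -1.20). Chdh, which oxidises choline to betaine, fell with -0.86 ± 0.12, and Bhmt, which uses that betaine, had 8.88, 12.7, 17.5, 18 and 24.7 CPM in the Con mice and 0.359, 0.976 and 2.93 CPM in the Ade + IMC mice. Both steps of this choline route were therefore lower in kidneys of mice given a choline analog and adenine, and the part of each compound cannot be told apart in this comparison. In the Ade against Con comparison, which shares the Con mice, the log2 fold changes were -0.84 for Chdh and -4.39 for Bhmt.

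Of the enzymes of glucose production, Fbp1 (-1.28 ± 0.15), Gk, a glycerol kinase (-1.86 ± 0.20), G6pc (-0.93 ± 0.19) and Pck1 (6179.5 to 10579.9 and 3338 to 6232 CPM, -0.80 ± 0.20) fell, and the groups of G6pc and Pck1 overlapped. Glycolysis had no common direction, since 8 of 23 tested members were higher and 8 lower (median -0.04). Hexokinase 2 (Hk2), the inducible form, went from 0.813, 0.908, 1.05, 1.17 and 4.04 CPM to 13.6, 24.7 and 67.7 CPM as lowest, median and highest (log2 fold change 4.20, SE 0.53, adjusted p = 2.68e-05). Pyruvate kinase (Pkm) rose slightly (0.36 ± 0.13).

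Redox and lipid genes were mixed, and so were the means of several lists. The median over members was below 0 and the mean change per mouse, as its median over 6 mice, above 0 for glycolysis (0.43), lipid uptake (0.11), the unfolded protein response (0.035), iron and haem (0.42) and the circadian clock (0.056). Of the glutathione and antioxidant genes 28 of 47 tested members were lower and 6 higher (median -0.36). Gpx3, the plasma glutathione peroxidase that the proximal tubule secretes, fell from 21809 to 31534 CPM (Con) to 8609 to 17786 CPM (Ade + IMC; -0.91 ± 0.22), the cystine importer Slc7a11 rose from 0.130 to 0.866 CPM (Con) to 1.61 to 8.13 CPM (Ade + IMC), Hmox1 rose (0.89 ± 0.19) and Gclc did not pass the test (log2 fold change -0.15, SE 0.29, adjusted p = 0.682). Of the cholesterol genes 14 of 30 tested members were lower and 5 higher (median -0.30). The synthesis enzyme Sqle was not called (log2 fold change -0.11, SE 0.18, adjusted p = 0.619). The exporter Abcg1 was higher (1.33 ± 0.19). Of lipid uptake and storage genes 17 of 43 tested members were higher and 13 lower (median -0.012). Apom, a lipoprotein component made in the proximal tubule, fell from 46.6 to 75.5 CPM (Con) to 9.51 to 19.9 CPM (Ade + IMC; -2.31 ± 0.18), the fatty acid carrier Cd36 fell (-0.82 ± 0.24) and Lpl did not pass the test (log2 fold change -0.33, SE 0.31, adjusted p = 0.375).

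**Figure D3:**
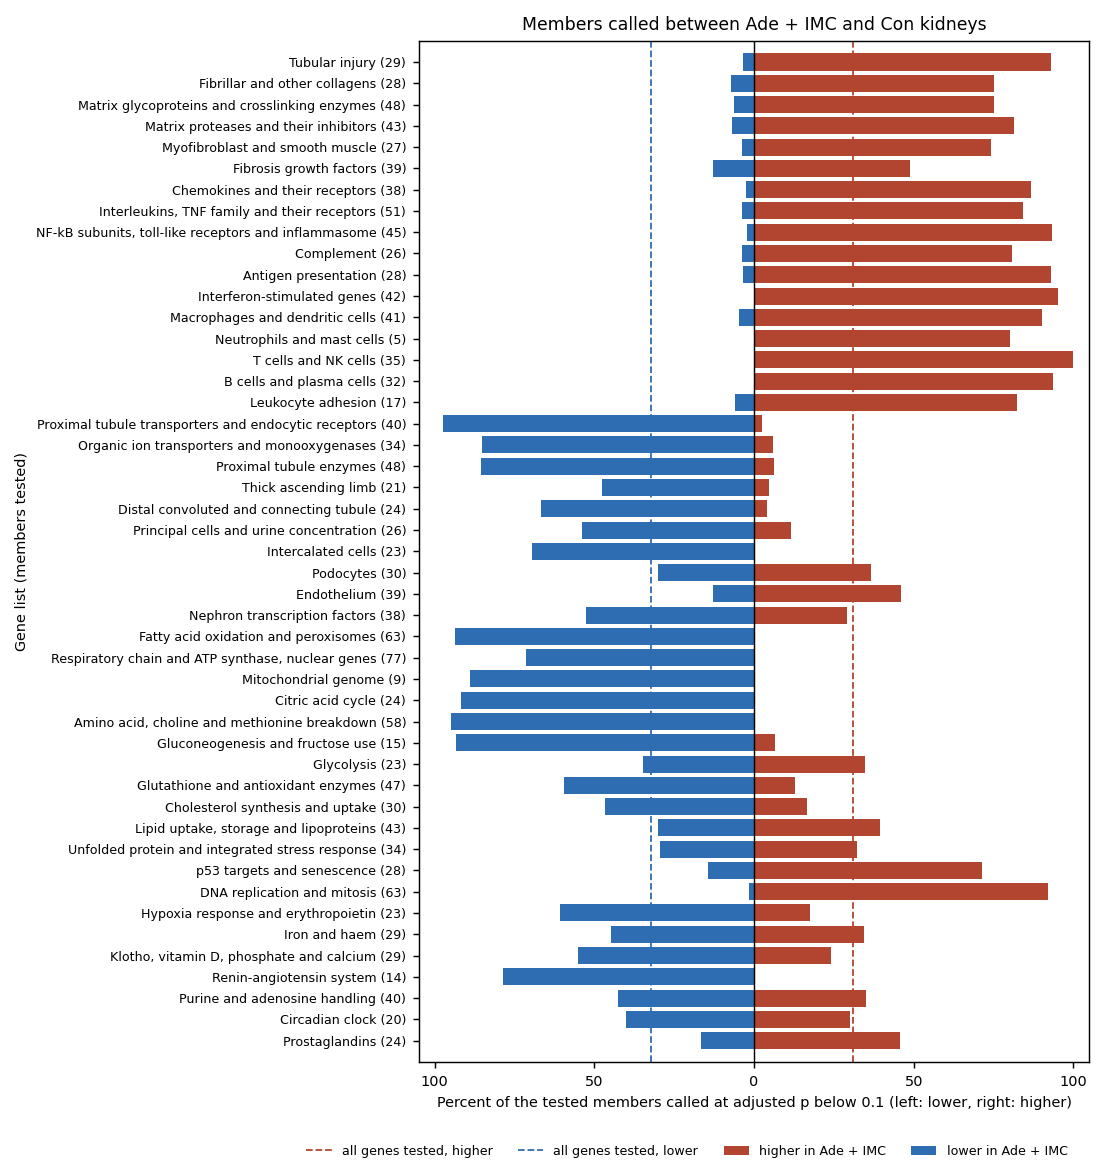
Percent of the tested members of 47 gene lists called higher (right, red) or lower (left, blue) in Ade + IMC than in Con kidneys, with dashed lines at the percent of all 14578 genes called higher (30.9) and lower (32.3). Matrix, inflammation and immune cell lists extend right of the dashed line, and proximal tubule and mitochondrial lists left of it. Lists such as circadian clock or purine handling extend to both sides, with a lower share above that of all genes.

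Members called against the direction of their list are given here for the matrix, injury, growth factor, stroma, inflammation, immune cell and tubule lists, named after their values were seen. In the matrix lists they were Col4a3, Col4a4, Loxl4, Lama1 (-0.49), Nid2 (-0.26), Mmp13 (-0.82), Timp3 and the urokinase gene Plau (-0.65), and among the injury genes Prom1 (-0.30). Among the growth factors and their receptors they were the BMP ligands Bmp4 (-0.44), Bmp6 and Bmp7 (-0.57), betacellulin (Btc, -0.95) and the receptor Egfr (-0.66), and in the stroma Itga8 (-0.41). Among inflammation and immune cell genes they were Ackr3 (-0.31), Lifr (-0.59), Tnfrsf21 (-0.78), Ticam1 (-0.30), Cfb, Ctsh (-0.30), Cyba (-0.26), Mertk (-0.34) and Jam3 (-0.25). In the tubule they included the rises of the prostaglandin and organic anion transporters Slco2b1 (0.78) and Slco3a1 (0.27), the oxysterol hydroxylase Cyp7b1 (1.45), the claudin Cldn19 (0.56), Tsc22d3 (0.85), the urea transporter Slc14a1 (1.04) and the mitochondrial Pck2 (0.62).

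Proliferation genes were raised. Among DNA replication and mitosis genes 58 of 63 tested members were higher and 1 lower (median 1.82). Mki67, present only in cycling cells, had 6.53, 7.86, 8.68, 8.81 and 11 CPM in the Con mice and 29.9, 48.6 and 150.2 CPM in the Ade + IMC mice (log2 fold change 2.84, SE 0.41, adjusted p = 7.88e-05). Top2a rose with 3.01 ± 0.45 and the mitotic cyclin Ccnb2 with 3.15 ± 0.34, and mouse 311, the mouse with the most lymphocyte RNA, was the highest for Mki67 and Top2a (150.2 and 103 CPM). Without mouse 311 the list median relative to all genes was 1.52 in place of 1.83. Which cells cycled was not tested. For p53 targets and senescence genes 20 of 28 tested members were higher and 4 lower (median 0.64), with Phlda3, a p53 target, at 2.09 ± 0.26. Cdkn2a, the senescence gene p16, had too few reads to be tested (0 to 0.144 and 0.293 to 2.15 CPM).

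The unfolded protein response was not raised as a group, since 11 of 34 tested members were higher and 10 lower (median -0.14). The stress transcription factors Atf4 (0.49 ± 0.097) and Ddit3, or CHOP (0.38 ± 0.14; not called without mice 212, 311 and 412), rose a little, and the chaperone Hspa5 (BiP) fell with overlapping groups (451 to 1174 and 477 to 715 CPM, log2 fold change -0.56, SE 0.20, adjusted p = 0.0289; not called under library totals). In the list of hypoxia response genes 14 of 23 tested members were lower and 4 higher (median -0.26). The hypoxia target Ndrg1 fell from 2251 to 3960.0 CPM (Con) to 722 to 1565 CPM (Ade + IMC; -1.35 ± 0.20) and Epo, the erythropoietin gene, did not pass the filter, with 0 to 0.144 and 0 to 0.147 CPM in the Con and Ade + IMC mice.

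In the klotho and renin-angiotensin lists, which hold endocrine functions of the kidney, more genes were lower than higher. For klotho, vitamin D, phosphate and calcium 16 of 29 tested members were lower and 7 higher (median -0.49), and for the renin-angiotensin system 11 of 14 tested members were lower and 0 higher (median -0.71). Mgp, the inhibitor of calcification, rose from 84.3 to 101 CPM (Con) to 495 to 628 CPM (Ade + IMC; log2 fold change 2.53, SE 0.09, adjusted p = 3.11e-09). Renin (Ren1) did not pass the test (13.5 to 201 and 79 to 114 CPM, log2 fold change -0.30, SE 0.41, adjusted p = 0.554), and the result rests on Con mouse 403, which had 13.5 CPM. Without that mouse the log2 fold change was -0.59 (adjusted p = 0.0080). Angiotensinogen (Agt) did not pass the test with all mice (log2 fold change -0.31, SE 0.17, adjusted p = 0.125), kallikrein (Klk1) fell (-0.87 ± 0.22) and the peptidase Mme (neprilysin) fell (-1.52 ± 0.18).

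Purine genes, which meet the dietary adenine directly, were divided. Among them 14 of 40 tested members were higher and 17 lower (median -0.0064), against 30.9% higher and 32.3% lower over all genes. Aprt, which salvages adenine, did not pass the test (32.4 to 49.3 and 33.9 to 45 CPM, log2 fold change 0.05, SE 0.11, adjusted p = 0.726). Xdh, the enzyme that oxidises adenine, rose from 55.3 to 66.8 CPM (Con) to 67.6 to 113 CPM (Ade + IMC; log2 fold change 0.55, SE 0.13, adjusted p = 0.00229) and Nt5e, which makes adenosine, fell with -0.76 ± 0.15. The nucleoside transporter Slc28a2 rose with 2.75 ± 0.57 and the nucleotide pyrophosphatase Enpp3 fell with -1.60 ± 0.19. Prostaglandin genes were mostly raised or not called, since 11 of 24 tested members were higher and 4 lower (median 0.27). Ptgs2 (COX-2) was at 1.88 ± 0.43, Pla2g2d rose from 0.130 to 1.01 CPM (Con) to 3.18 to 63.2 CPM (Ade + IMC) and Ptgs1 was not called (log2 fold change -0.20, SE 0.11, adjusted p = 0.127). In the circadian clock list 8 of 20 tested members were lower and 6 higher (median -0.14). Per2 was at 0.61 ± 0.16, Nr1d1 at -0.27 ± 0.099 and Arntl was not called (log2 fold change -0.21, SE 0.19, adjusted p = 0.351). Under library totals Nr1d1 had a log2 fold change of 0.015 (adjusted p = 0.90), so its direction rests on the scaling.

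For iron and haem genes 13 of 29 tested members were lower and 10 higher (median -0.29). The transferrin receptor Tfrc fell (-0.31 ± 0.11), a call lost under library totals and without mice 212, 311 and 412, and the iron exporter Slc40a1 did not pass the test (log2 fold change -0.31, SE 0.16, adjusted p = 0.105). The zinc and iron importer Slc39a8 fell with -1.36 ± 0.17. Red cell genes, mostly those of blood in the tissue, were lower in all 8 tested members (median -0.87). Hbb-bs had 121 to 161 CPM in the Con and 55.1 to 152 CPM in the Ade + IMC mice, and Hba-a1 had 22.5 to 33.1 and 9.69 to 28 CPM. These globin genes have near-identical copies. Of the reference genes Hprt (log2 fold change 0.14, SE 0.074, adjusted p = 0.122) and Gapdh (log2 fold change -0.061, SE 0.12, adjusted p = 0.707) did not pass the test. Gapdh has many near-identical pseudogene copies and was read at 6.22 to 8.62 CPM only. Actb rose (1.18 ± 0.15) and Eif2a fell slightly (-0.22 ± 0.078), and under library totals Eif2a was not called and had the opposite sign (0.069, adjusted p = 0.43).

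Markers of tissue around the kidney differed between mice within both groups. The mean log2 CPM of the urothelium list, relative to the Con mean, was 0.87, 1.36 and 1.19 in Con mice 201, 202 and 301. It was -1.67 and -1.75 in Con mice 302 and 403, and ran from -0.14 to 3.22 in the Ade + IMC mice. Of the 11 adipocyte genes 5 were tested, 4 were higher and 1, the gluconeogenic Pck1, was lower, with a median of 4.79 and no member without overlap. Relative to all genes the median was 4.80 with all mice and ran from 0.95 to 6.01 when each mouse was left out in turn. It was 0.95 without mouse 212, 1.86 without mouse 211, 1.95 without mouse 410 and 0.60 with at least 50 reads in 5 mice. Adipoq had 19.3 CPM in mouse 211, 68.4 in mouse 212 and 11.9 in mouse 410, against 0 to 0.227 CPM in the other 3 Ade + IMC mice and 0 to 2.74 CPM in the Con mice. Plin1 was in the same 3 mice (18.9, 82.1 and 11.9 CPM). Of 12 tested urothelial genes 9 were higher (median 1.96). Relative to all genes this median was 1.98 with all mice and 0.28 within mouse numbers starting with 3. It was 6.33 within numbers starting with 4, which hold 1 Con mouse. Upk1b was likewise highest in mice 211, 212 and 410 (26.1, 11.6 and 22 CPM, against 0.968 to 6.01 in the others and 0.392 to 5.20 in the Con mice). Upk3a was called as well (log2 fold change 2.15, SE 0.91, adjusted p = 0.0589), but not with DESeq2 (0.104) or without any 1 of mice 211, 302, 403 and 410 (0.11 to 0.132). The adrenal markers Star (4.55 to 9.62 and 4.15 to 5.98 CPM) and Cyp11a1 (at most 0.722 CPM) were low, and of 7 tested liver and muscle genes 3 were higher and 1, Alb, was lower (-1.07 ± 0.14). The part of these tissues in the gene groups above was not tested. The fat cells carry their own lipid genes, and in the lipid uptake and storage list mouse 212 had the highest score.

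Ade + IMC and Ade kidneys were also compared directly, since this test uses the mice that differ in IMC alone. Of 14696 genes tested by limma on log2(normalized count + 1), 0 (0.0%) were called at an adjusted p below 0.1 (smallest 0.601). An unadjusted p below 0.05 was found for 988 (6.72%). That number was unstable when single mice were left out, from 616 without Ade mouse 208 to 1899 without Ade mouse 407. edgeR on the recovered reads called 0 and DESeq2 called 37. The paper reports far more genes changed between these groups, with DESeq2 at the same threshold, and the cause of that gap was not tested. With a block on the leading digit of each mouse number limma called 133, and 2007 genes had an unadjusted p below 0.05. The count of 0 therefore depends on the model. The Ade against Con comparison, which shares the Con mice, called 9841 of 14612 genes (67.3%), 5135 higher and 4706 lower. Side by side, the log2 fold changes against Con were 7.34 with IMC and 8.22 without it for Havcr1. They were 3.97 and 4.20 for Col1a1, 4.36 and 5.0 for C3, -2.36 and -2.07 for Slc5a2 and -2.24 and -2.65 for Lrp2.

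Intervals of the direct difference are given for genes described above, unadjusted for the number of genes. On the log2 scale the difference was -1.05, 95% interval -2.13 to 0.03, for Havcr1. For Lcn2 it was -0.60, 95% interval -1.41 to 0.20, and for Vcam1 -0.88, 95% interval -1.38 to -0.39. For Col1a1 it was -0.21, 95% interval -0.50 to 0.089, and for Col3a1 -0.40, 95% interval -0.71 to -0.097. For Ccl2 it was -0.66, 95% interval -1.13 to -0.18, for Timp1 -0.94, 95% interval -1.71 to -0.17 and for Mmp7 -1.03, 95% interval -1.90 to -0.16. All of these estimates were below 0, and the intervals of Vcam1, Col3a1, Ccl2, Timp1 and Mmp7 lie below 0. For Slc5a2 the difference was -0.23, 95% interval -0.83 to 0.37, and for Lrp2 0.60, 95% interval -0.17 to 1.37. For Acadm it was 0.91, 95% interval 0.24 to 1.59 and for Egf 1.03, 95% interval 0.10 to 1.96. The interval lies above 0 for Acadm and Egf and includes 0 for Slc5a2 and Lrp2. The list medians of the difference were -0.39 for tubular injury, -0.098 for collagens, -0.24 for macrophages and dendritic cells and -0.035 for T cells and NK cells. They were -0.029 for matrix glycoproteins, -0.057 for fibrosis growth factors and 0.024 for myofibroblast and smooth muscle genes. For proximal tubule transporters, organic ion transporters and proximal tubule enzymes they were 0.25, 0.37 and 0.53, and for the thick ascending limb 0.34. An unadjusted p below 0.05 was found for 6.72% of all genes. Among list members it was found for 11 of 29 tubular injury genes, 5 of 28 collagens and 13 of 48 proximal tubule enzymes. It was found for 0 of 28 antigen presentation genes and 0 of 35 T cell and NK cell genes. For B cells and plasma cells it was 0 of 32, and for interferon-stimulated genes 1 of 42.

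The 5 genes with the smallest unadjusted p in that comparison were Fam163a, Alas2, Myrf, Lypd2 and Kcnt1, each with an adjusted p of 0.601 or more. Since they were chosen by this p, their differences are a description. Alas2, the haem synthesis enzyme of red cell precursors (15.5% of its exonic bases lie opposite another gene), differed by 1.56 and the globin Hbb-bs by 1.60 on the log2 scale. Relative to Con, red cell genes had a median of -0.87 in the Ade + IMC and -2.02 in the Ade mice. Myrf, a transcription factor, was lower in Ade + IMC than in Con kidneys (log2 fold change -1.35, SE 0.21, adjusted p = 1.59e-04) and differed from Ade kidneys by -0.98. Fam163a differed by -0.81, the sodium-activated potassium channel gene Kcnt1 by 1.20 and Lypd2 by 1.30.

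**Figure D4:**
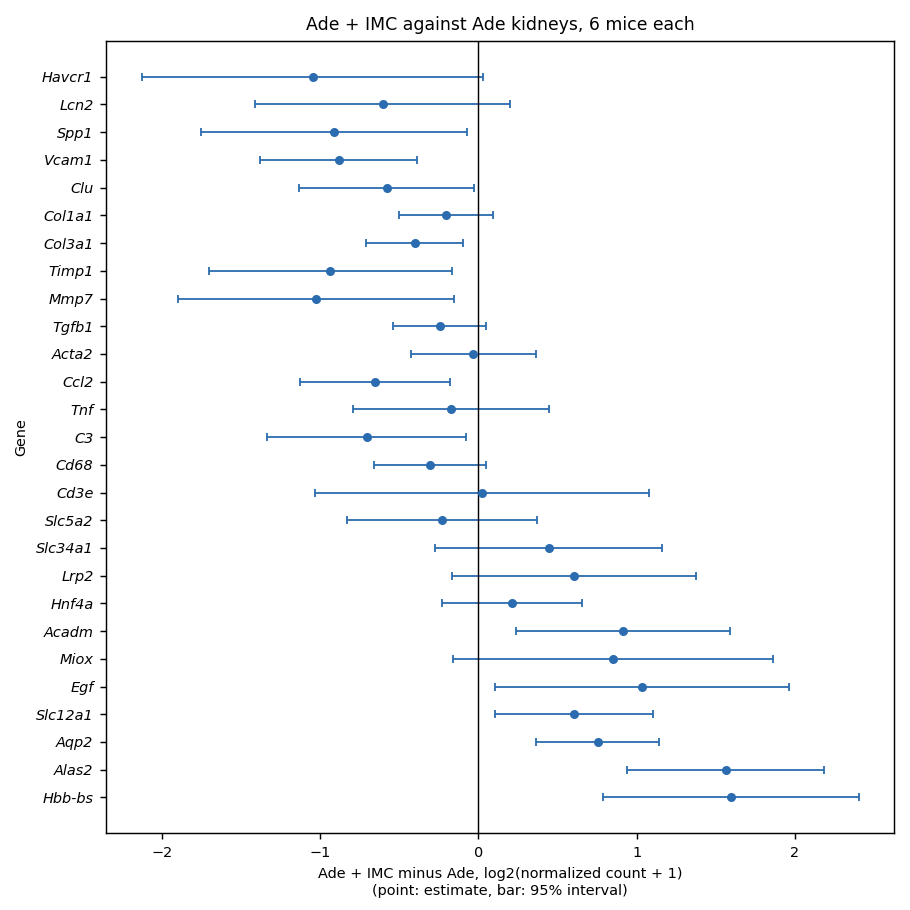
Difference between 6 Ade + IMC and 6 Ade kidneys in log2(normalized count + 1) for 27 genes, with the estimate as a point and its 95% interval as a bar, unadjusted for the number of genes. Injury, matrix and chemokine genes lie at or below 0 and tubule and red cell genes mostly above 0, and none of the 14696 genes tested by limma without a block passed an adjusted p of 0.1.

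The 6 Ade + IMC mice were not equally affected. Scored by the mean log2 CPM of each list relative to the Con mean, mouse 412 was the closest to the Con mice in 26 of 52 lists and mouse 310 in 12, and mouse 311 was the farthest in 29. Mouse 311 was at the same time the lowest of the 6 for tubular injury, with a score of 1.52 against up to 2.32. The mouse number starts with 2, 3 or 4, and the labels do not say what this digit is. Within the digits, which hold 2, 2 and 1 Con mice and 2 Ade + IMC mice each, the median log2 fold change of the proximal tubule transporters was -1.34, -1.24 and -1.18, and of the collagens 0.84, 1.01 and 1.80. For macrophages the values were 2.96, 3.15 and 2.28, and for fatty acid oxidation -0.47, -0.87 and -0.77. The direction was the same in all 3 for these lists. The thick ascending limb differed, with -0.78, -0.43 and 0.25.

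**Figure D5:**
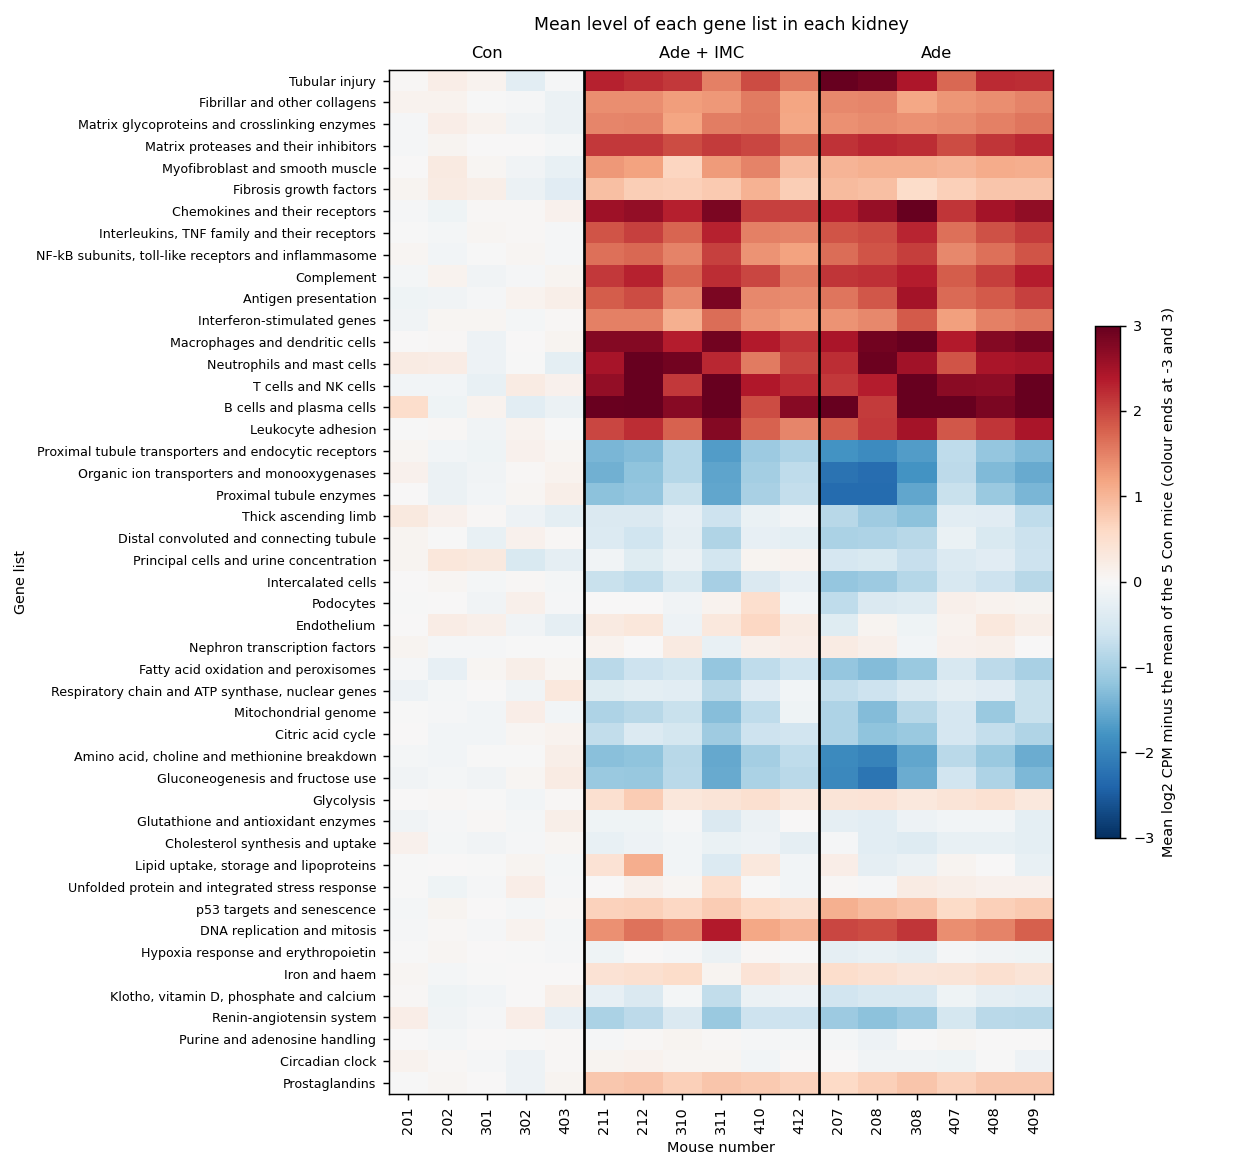
Mean log2 CPM of each of 47 gene lists minus the mean of the 5 Con mice (colour, ends at -3 and 3) in 17 kidneys, with 1 column per mouse by group. Red immune, matrix and injury lists and blue lists of proximal tubule transporters and enzymes, fatty acid oxidation, the citric acid cycle and amino acid breakdown appear in each of the 6 Ade + IMC mice, glycolysis is above 0 in each, and mouse 311 is the highest for B cells and plasma cells.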

How the data were processed

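Kidney RNA was sequenced as 50-base single-end reads, and the authors deposited 2 gene tables, raw counts (Con and Ade mice) and normalized counts (Ade and Ade + IMC mice). The latter are a signal that the authors made by dividing read counts by the DESeq2 size factor of each mouse. The study's methods name STAR 2.3.1 and mm10, while the labels list Trimmomatic 0.39, FastQC 0.11.8, Bowtie2 2.2.5 and HTSeq 0.9.1, and the annotation release and the strand setting are not given in the sources used here. Another deposited table holds gene names and the authors' own comparison (base mean, fold change, p) and was not used.

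Each normalized value divided by the smallest value above 0 of its column was whole for 100% of 233731 values (tolerance 0.001), so these reads were recovered, and in the 6 Ade mice present in both tables they equalled the raw counts in every value. The 20634 genes in both tables were joined, which leaves out 370 and 653 genes of a single table, and Con mice therefore come from the first table and Ade + IMC mice from the second. The tables were listed from a row total of 5 reads. Depth was 7715837 to 11680359 reads in the Con and 5728175 to 8304923 in the Ade + IMC mice, and precision at low levels is limited by a floor of 3 reads. No 2 mice agreed within sampling noise.

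Ade + IMC was tested against Con, and Ade against Con, with edgeR 4.0.16 (R 4.3.3, quasi-likelihood, TMM, filterByExpr, Benjamini-Hochberg, called at an adjusted p below 0.1, no covariate), with the SE as the fold change over the root of F. Ade + IMC was tested against Ade with limma 3.58.1 (trend) on log2(normalized count + 1) for genes with a mean of at least 10, which understates changes of low genes. Log2 CPM used a prior count of 2. Single measures used exact permutation in SciPy 1.17.1. Groups came from the treatment label. The methods were tested on simulated data in which few genes changed, balanced between rises and falls. How the scaling behaves when most genes change was therefore not tested. Alternatives were DESeq2 1.42.0, other scalings and filters, a block on the leading digit of each mouse number, and leaving out mice. Leaving out mice 212, 311 and 412 together was added after the data were seen.

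The members and the 52 gene lists were chosen with earlier results of these data known. Named genes are key genes of the lists, the largest rise and fall in each list (called, at least 2-fold, no overlap, mean CPM of at least 5 in the higher group), the 10 largest rises and falls over all genes by the same conditions, Apoe and 4 reference genes, the 5 genes with the smallest p between Ade + IMC and Ade mice, and the genes whose promoters are printed. Some of the genes named by this rule are not reported here.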

Additional observations from a re-analysis of the deposited data

Results flagged for a closer look

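Within each group the highest and the lowest mouse were compared with the others by Dixon's test. Of 516 sets of values 69 held a mouse apart from the others, against 26 that chance gives at about 1 in 20. The 26 holds for normally distributed values, which CPM near 0 are not. For Epo in mice 202 and 412 and Cdkn2a in mouse 202, 1 read stood against 0 in the others. The outcome of the test was fixed in such sets. All values of genes below are CPM, followed by the range of the other mice of the group.

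Mouse 311 of the Ade + IMC group stood apart most often, in 27 sets, mostly with lymphocyte, antibody and cell division genes. It was highest for Actb (2033, others 1184 to 1494), B2m (1962, others 803 to 1168), Ccnb2 (15.2, others 5.28 to 8.49), Cd3e (40.8, others 5.81 to 13.4), Cd4 (96.8, others 21.7 to 35.4), Cd74 (3519, others 1354 to 2016), Cxcl13 (47.7, others 1.66 to 8.73), Hspa5 (715, others 477 to 550.2), Ighm (27706, others 336 to 2746), Ighv1-9 (66.8, others 1.24 to 12.2), Ighv3-6 (836, others 0.859 to 13.5), Ighv9-3 (24.4, others 0.716 to 4.19), Igkv3-2 (596, others 0.716 to 65.5), Igkv3-4 (648, others 1.76 to 171), Igkv3-5 (155, others 1.03 to 5.98), Igkv5-39 (81, others 0.859 to 13), Jchain (2273, others 54.4 to 350.5), Ltb (68.5, others 11 to 31.3), Mki67 (150.2, others 29.9 to 62.1), Ms4a1 (61.6, others 0.716 to 8.37), Pla2g2d (63.2, others 3.18 to 13.9), Slc28a2 (18.4, others 3.08 to 7.65), Tnfrsf13c (28.8, others 0.573 to 5.38), Tnfrsf9 (9.52, others 1.47 to 3.83) and Top2a (103, others 18.9 to 39). It was lowest for Cox5a (68.4, others 98.3 to 112). Immunoglobulin genes took 6.50% of its reads (others 0.108% to 1.13%).

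Mouse 212 was highest for the fat cell genes and several metabolic genes, namely Adipoq (68.4, others 0 to 19.3), Cd36 (204, others 60.3 to 98.3), Cs (420.4, others 277 to 318), Hk2 (67.7, others 13.6 to 28.1), Pkm (415, others 258 to 305), Plin1 (82.1, others 0 to 18.9) and Slc36a2 (58.2, others 4.84 to 16.8). Mouse 412 was highest for Epo (0.147, others 0), Hba-a1 (28, others 9.69 to 16.5), Hbb-bs (152, others 55.1 to 83.7), Hpd (34.3, others 7.82 to 13.7), Kcnt1 (49.8, others 17.6 to 29.2) and mt-Nd1 (17590.0, others 7111 to 10212) and lowest for Col1a1 (496, others 719.5 to 815) and Fn1 (267, others 427 to 479), and its 10 most abundant genes took 14.1% of the reads (others 10% to 11.3%). Mouse 310 was highest for Cpt1a (524, others 327 to 396), Sqle (83.2, others 48.3 to 57.4) and Umod (6542, others 3889.5 to 4835). Mouse 410 was highest for Arntl (29.2, others 14.2 to 19.7), and its podocyte list score was 0.505 above the Con mean (others -0.10 to 0.11).

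Among the Con mice, mouse 201 was highest for Ace (522, others 366 to 381), Cd36 (257, others 162 to 180.3), Fn1 (135, others 60.7 to 77.7), Igkv3-4 (0.706, others 0 to 0.144), Lpl (1215, others 449.8 to 554) and Trem2 (1.51, others 0.433 to 0.653), and its score of nephron transcription factors was 0.0782 (others -0.03 to -0.0089). Mouse 202 was highest for Cdkn2a (0.144, others 0), Cyp11a1 (0.722, others 0 to 0.130), Epo (0.144, others 0), Hk2 (4.04, others 0.813 to 1.17) and Ptgs1 (56.9, others 46.4 to 48.5), and its adipocyte score was 1.84 (others -0.64 to -0.07). Mouse 301 was lowest for Calb1 (408, others 563 to 601) and mouse 302 highest for Bmp6 (69.4, others 51.3 to 55.3) and Slc34a3 (62.6, others 38.7 to 45.1). Mouse 403 was highest for Atp5a1 (2717, others 2364 to 2431), Cox5a (157, others 108 to 122), Foxj1 (0.915, others 0.271 to 0.39) and Vegfa (488, others 423 to 439), with an amino acid breakdown score of 0.175 (others -0.08 to -0.01). No test of a difference between tissues, sexes or time points applied, and every table column of a labelled mouse was used.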

How the results depend on the processing

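Of the results described, the count of genes called between Ade + IMC and Con kidneys ran from 7489 to 10314 over the alternatives, among them DESeq2, limma, other filters, other scalings, a threshold of 0.05 and the leaving out of mice. At 5728175 to 11680359 reads a mouse, low genes such as Il6, Epo and Cdkn2a were left untested. With library totals 7531 genes were higher, 2247 lower and 367 lower by at least 2-fold (7990, 2497 and 541 between Ade and Con), and Eif2a (0.069) and Nr1d1 (0.015) changed sign. Upper-quartile scaling gave 5173 higher and 3873 lower. Genes higher by at least 2-fold were 3154 with no filter on low counts and 1210 with at least 50 reads in 5 mice, against 2084 (3516 and 1431 between Ade and Con), as the filters test more or fewer genes. Between Ade + IMC and Ade kidneys DESeq2 on the recovered reads called 37 genes in place of 0, 21 higher and 16 lower, with 9 in each direction at 2-fold. The causes of these differences other than the filters were not tested.

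A replicate block on the leading digit of each mouse number gave 9193 calls between Ade + IMC and Con mice, against 9219. Between Ade + IMC and Ade mice the block gave 133 calls in place of 0, 73 higher and 60 lower, with 28 and 20 at 2-fold. Deviations from the group means of Con and Ade + IMC mice with the same digit correlated at -0.208 to 0.242 over 10 pairs (median 0.0351) and those with different digits at -0.277 to 0.158 over 20 pairs. Between Ade and Ade + IMC mice the values were -0.246 to 0.476 over 12 pairs with the same digit (median 0.191) and -0.467 to 0.356 over 24 with different digits (median -0.0787). Same-digit pairs lay on both sides of 0, which does not show that the digit has no effect. The main tests used no block, and the counts between Ade + IMC and Ade mice rest on that choice. What the digit stands for was not tested.

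List medians below are relative to the median of all genes, and the cause of each shift was not tested. Within digit 2 they were 0.85 for collagens, 0.31 for fibrosis growth factors, 3.53 for neutrophils and mast cells, -0.77 for thick ascending limb, 0.58 for lipid uptake, 0.12 for circadian clock and 0.36 for prostaglandins. Within digit 3 they were 1.02 for collagens, 2.81 for complement, 2.50 for antigen presentation, -0.13 for cholesterol synthesis and uptake, 0.082 for purine and adenosine handling, 0.36 for prostaglandins and -0.86 for adipocyte markers. Within digit 4, which holds 1 Con mouse, they were 1.81 for collagens, 1.06 for fibrosis growth factors, 2.09 for chemokines and their receptors, 1.54 for interleukins and the TNF family, 1.32 for NF-kB and toll-like receptors, 1.20 for antigen presentation, 2.29 for macrophages and dendritic cells, 3.48 for neutrophils and mast cells, 2.43 for T cells and NK cells, 2.85 for B cells and plasma cells, 1.72 for leukocyte adhesion, 0.26 for thick ascending limb, 0.33 for podocytes, 0.63 for endothelium, 0.000529 for nephron transcription factors, -0.39 for mitochondrial genome, -0.51 for glutathione and antioxidant enzymes, -0.43 for cholesterol synthesis and uptake, 0.43 for p53 targets and senescence, 1.15 for DNA replication and mitosis and -0.17 for purine and adenosine handling. Without mice 212, 311 and 412, an alternative chosen after the data were seen, they were 2.48 for chemokines and their receptors, 1.61 for interleukins and the TNF family, 2.51 for neutrophils and mast cells, 2.66 for B cells and plasma cells, 2.10 for leukocyte adhesion, -0.19 for cholesterol synthesis and uptake and -0.044 for circadian clock. With at least 50 reads in 5 mice they were 0.98 for collagens, -0.071 for neutrophils and mast cells, -0.18 for cholesterol synthesis and uptake, 1.31 for DNA replication and mitosis, -0.10 for purine and adenosine handling and 0.18 for prostaglandins. Of the neutrophil and mast cell list Kit alone passed the latter filter. The purine list was at -0.051 with no filter and at -0.053 with DESeq2. Leaving out each mouse in turn gave 0.90 to 1.36 for collagens (1.26 with all mice), 2.52 to 3.05 for chemokines and their receptors (2.85 with all mice), 1.63 to 2.17 for interleukins and the TNF family (2.03 with all mice), 2.48 to 4.56 for neutrophils and mast cells (4.28 with all mice), 2.87 to 4.72 for B cells and plasma cells (4.53 with all mice), 2.25 to 2.97 for leukocyte adhesion (2.83 with all mice), -0.33 to -0.22 for cholesterol synthesis and uptake (-0.28 with all mice) and -0.069 to 0.066 for purine and adenosine handling (0.00933 with all mice).

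Of the named genes called with all mice, the call was lost, with the adjusted p or its range in parentheses, for Aqp2 without mouse 202, 211, 212, 301, 310, 311 or 412 (0.122 to 0.239), Plin2 without mouse 201, 202, 211, 212 or 403 (0.115 to 0.151), Star without mouse 301 or 410 (0.11 to 0.166) and Upk3a without mouse 211, 302, 403 or 410 (0.11 to 0.132). Of those not called with all mice, a call was made for Agt without mouse 302 or 310 (0.0227 to 0.0885), Arntl without mouse 410 (0.0578), Calb1 without mouse 410 (0.0935), Cs without mouse 212 (0.0177), Hprt without mouse 202, 211, 403 or 412 (0.0643 to 0.0974), Kcnt1 without mouse 302, 403 or 412 (0.0209 to 0.0483), Lypd2 without mouse 202 (0.0444), Nphs1 without mouse 410 (0.0562), Ptgs1 without mouse 211 (0.0616), Ren1 without mouse 403 (0.00795), Slc40a1 without mouse 202, 301 or 310 (0.0186 to 0.0764) and Wt1 without mouse 412 (0.096). Under the other alternatives calls were lost for Aqp2, Eif2a, Nr1d1, Star and Tfrc with upper-quartile scaling, for Alas2, Aqp2, Cox5a, Fam163a, Hspa5, Kdr, Scnn1g, Slc12a1, Star and Tfrc with library totals, for Aqp2 with at least 50 reads in 5 mice, for Upk3a with DESeq2, for Aqp2, Cox5a, Ddit3, Fam163a, Slc12a1, Star and Tfrc without mice 212, 311 and 412. Calls were gained for Hprt with upper-quartile scaling, for Hprt with RLE scaling, for Aprt, Hprt, Lypd2, Pecam1 and Wt1 with library totals, for Hprt with at least 50 reads in 5 mice, for Cs without mice 212, 311 and 412.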
